A study of Mus musculus with 16 samples.

Results

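The genes described here encode interstitial collagens, basement membrane proteins, small proteoglycans and other matrix proteins, together with a few markers of stromal cells, in isolated mouse pancreatic islets. The list is a set of 32 named genes, and 31 of them were measured among 18193 genes. No threshold on the values chose them, but earlier results of these data were known when the list was drawn up. Fbn1, which encodes a microfibril protein, was not analysed here. The measured genes comprise 5 fibrillar collagens, 5 genes of collagen VI and the multiplexins, 3 small leucine-rich proteoglycans, 8 basement membrane genes, 5 matrix glycoproteins and protease inhibitors, and 5 stromal cell genes.

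The data are 8 arrays of mutant islets and 8 of control islets, with 1 array per preparation. Mutants carried RIPcreER, a tamoxifen-inducible Cre recombinase under the rat insulin promoter, with 1 floxed and 1 lacZ allele of Insm1, which encodes a DNA-binding factor of endocrine cells (RIPcreER; Insm1flox/lacZ). Controls carried RIPcreER with 1 floxed and 1 wild-type allele (RIPcreER; Insm1flox/+). The mice were of a mixed background of CBA/J, C57BL/6 and 129/ola strains, and all received 25 mg of tamoxifen by 21-day release at 4 to 5 weeks, and their islets were taken at 8 to 12 weeks. The series text calls the controls litter-matched. Because both groups had the recombinase and the drug, the floxed allele could be lost in control beta cells too, where 1 wild-type allele was left. The lacZ allele was present in every cell of a mutant, stromal cells included, whereas the insulin promoter directs the recombinase to beta cells. The comparison asks which matrix and stromal transcripts differ in the islet when the second allele is lacZ rather than wild type.

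Islet cells lie against capillaries whose basement membrane is built of type IV collagen and laminin networks joined by nidogens and perlecan, and endothelial cells are a main source of it within the mouse islet. The interstitial matrix around vessels and at the islet edge is built of fibrillar collagens I, III and V with collagen VI, and small leucine-rich proteoglycans bind those fibrils. Fibroblasts, stellate cells and pericytes make most of the interstitial matrix, while beta cells themselves make little of either kind.

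Values are log2 signals of the brightest probe set of each gene, and differences are mutant minus control (SD, SE and n = 8 per group throughout). A gene was called at a Benjamini-Hochberg adjusted p under 0.05 in a limma fit over all 18193 genes. In bulk islets, fewer cells of a type and less RNA per cell cannot be told apart. All 31 genes had a mean above the lowest array median (6.29). Insm1 read 11.02 ± 0.22 in mutants and 11.26 ± 0.23 in controls and was not called (−0.25 ± 0.11, adjusted p = 0.182), and where its probes lie relative to the deleted part is not given in the sources used here. Arrays of the 2 groups with the same number deviated together from their group means, so the fit with the replicate number as a block is given wherever it changed the call of a gene of the list or a count of calls in another list.

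Of the 31 genes, 4 rose in mutant islets and 0 fell. The 4 were Dcn, Bgn, Col1a2 and Col6a1, with differences of 1.29, 0.66, 0.60 and 0.45. They make up 12.9% of the list, while of all genes 4.1% rose and 4.66% fell. At an unadjusted p under 0.05, 9 genes of the list were higher and 1 was lower in limma, against 9.67% and 11.8% of all genes. The mutant mean was above the control mean for 22 genes of the list and below it for 9, with a median difference of 0.17, beside a median of −0.01 over all genes. With the replicate block, 6 genes were called higher and 1 lower, as Lum and Col1a1 were added on the higher side and Rgs5 on the lower, against 7.88% and 9.71% of all genes. The groups of 8 overlapped for every gene of the list, while 2.29% of all genes had groups that did not overlap. Dcn was the 1 gene of the list that was higher in the mutant in all 8 pairs, as were 5.79% of all genes.

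**Figure D1:**
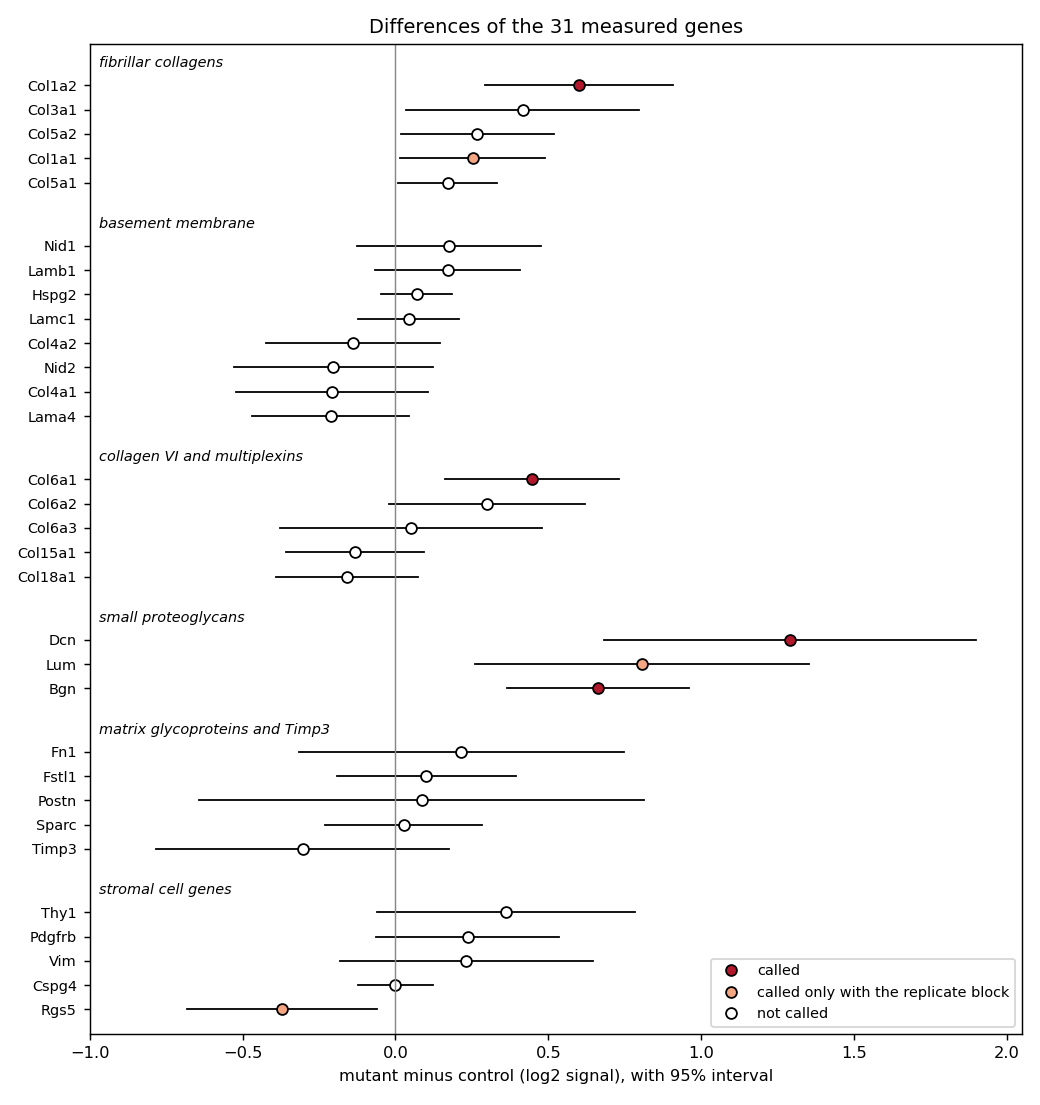
Difference in log2 signal (mutant minus control, x axis) of the 31 genes, by class, as points with 95% confidence intervals from limma without the replicate block. Red points were called, pale points were called only with the replicate block, and open points were not called. Dcn, Bgn, Col1a2 and Col6a1 were called, and the intervals of all 8 basement membrane genes include 0.

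Measures of RNA quality and of exocrine tissue moved with genotype in every pair, so fits that include them cannot fully separate them from genotype. The 3′ minus 5′ signal of the array controls for Gapdh and beta-actin, which is larger in more degraded RNA, was 0.359 ± 0.060 in mutants and 0.440 ± 0.085 in controls, with the mutant lower in 8 of 8 pairs. The mean signal of 20 acinar cell markers was 10.93 ± 1.72 in mutants (8.25 to 13.36) and 12.47 ± 0.93 in controls (11.39 to 13.83), also with the mutant lower in all pairs. With the 3′ minus 5′ signal in the fit and no block, Dcn (1.31, adjusted p = 0.0324), Bgn (0.78, adjusted p = 0.00653) and Col1a2 (0.68, adjusted p = 0.0248) kept their calls, and Col6a1 lost its call at 0.52 (adjusted p = 0.0636). When the block was combined with that signal, no gene of the list was called and 3 of the 4 differences changed sign, to −0.030 ± 0.29 for Dcn (adjusted p = 0.984), −0.044 ± 0.25 for Col1a2 (adjusted p = 0.97) and −0.20 ± 0.17 for Col6a1 (adjusted p = 0.726). Bgn was 0.22 ± 0.21 in that fit (adjusted p = 0.771), and 238 genes were called in all. With the acinar mean and no block, Dcn (1.51, adjusted p = 0.00691), Bgn (0.67, adjusted p = 0.0167) and Col6a1 (0.51, adjusted p = 0.0496) kept their calls, and Col1a2 lost its call at 0.53 (adjusted p = 0.0563). With the block and the acinar mean, no gene of the list was called, although all 4 differences kept their direction, at 0.80 ± 0.44 for Dcn, 0.55 ± 0.22 for Bgn, 0.28 ± 0.27 for Col1a2 and 0.39 ± 0.25 for Col6a1. The adjusted p-values of these 4 were 0.376, 0.222, 0.651 and 0.454.

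The small leucine-rich proteoglycans had the largest differences of the list. Decorin, encoded by Dcn, binds collagen fibrils and sequesters TGF-beta. Its signal was 8.89 at the lowest, 9.51 at the median and 10.69 at the highest in mutants, against 7.19, 8.63 and 8.98 in controls. Of the 8 mutant arrays, 7 lay above the highest control, and 7 controls lay below the lowest mutant. Means were 9.65 ± 0.61 in mutants and 8.36 ± 0.66 in controls, a difference of 1.29 ± 0.29 (95% interval 0.68 to 1.90, 2.44-fold, adjusted p = 0.00814). The pairs ranged widely, with a difference of 0.01 in pair 1, 0.65 to 0.89 in pairs 4, 5 and 7, 1.42 in pair 2 and 2.02 to 2.39 in pairs 3, 6 and 8. In pairs 6 and 8 the controls, at 7.53 and 7.19, were the lowest of their group, and the mutants read 9.60 and 9.20. Leaving out any 1 array kept the call, with differences between 1.12 and 1.40. A second, much dimmer Dcn probe set read 5.67 ± 0.10 in mutants and 5.70 ± 0.14 in controls, below the array medians, and was not called.

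Biglycan, encoded by Bgn, is a close relative of decorin that binds collagen and can act as a danger signal when released from the matrix. Bgn ran from 9.40 through a median of 9.84 to 10.51 in mutants, against 8.89, 9.12 and 9.43 in controls. Thus 7 mutant arrays lay above every control. The difference was 0.66 ± 0.14 (95% interval 0.36 to 0.96, 1.58-fold, adjusted p = 0.00602), and the mutant was higher in 7 of 8 pairs. All 3 Bgn probe sets rose, by 0.66, 0.63 and 0.41, when every probe set was tested. Bgn averaged 9.82 ± 0.38 in mutants and 9.16 ± 0.19 in controls.

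Lumican, encoded by Lum, regulates collagen fibril assembly and lies next to Dcn on chromosome 10. Lum read 6.18 at the lowest, 7.10 at the median and 8.32 at the highest in mutants, against 5.63, 6.48 and 7.01 in controls. Its difference of 0.81 ± 0.26 (95% interval 0.26 to 1.35) was larger than that of Bgn but was not called, with an adjusted p of 0.0627. With the replicate block the adjusted p was 0.0417. Leaving out mutant replicate 5 gave 0.95 (adjusted p = 0.0206), and leaving out control replicate 2 gave 0.90 (adjusted p = 0.0453). With the block and the 3′ minus 5′ signal Lum turned to −0.31 (adjusted p = 0.837). The 3 pairs with the largest Lum differences, pairs 3, 6 and 8 at 1.59 to 1.95, were the same 3 as for Dcn.

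**Figure D2:**
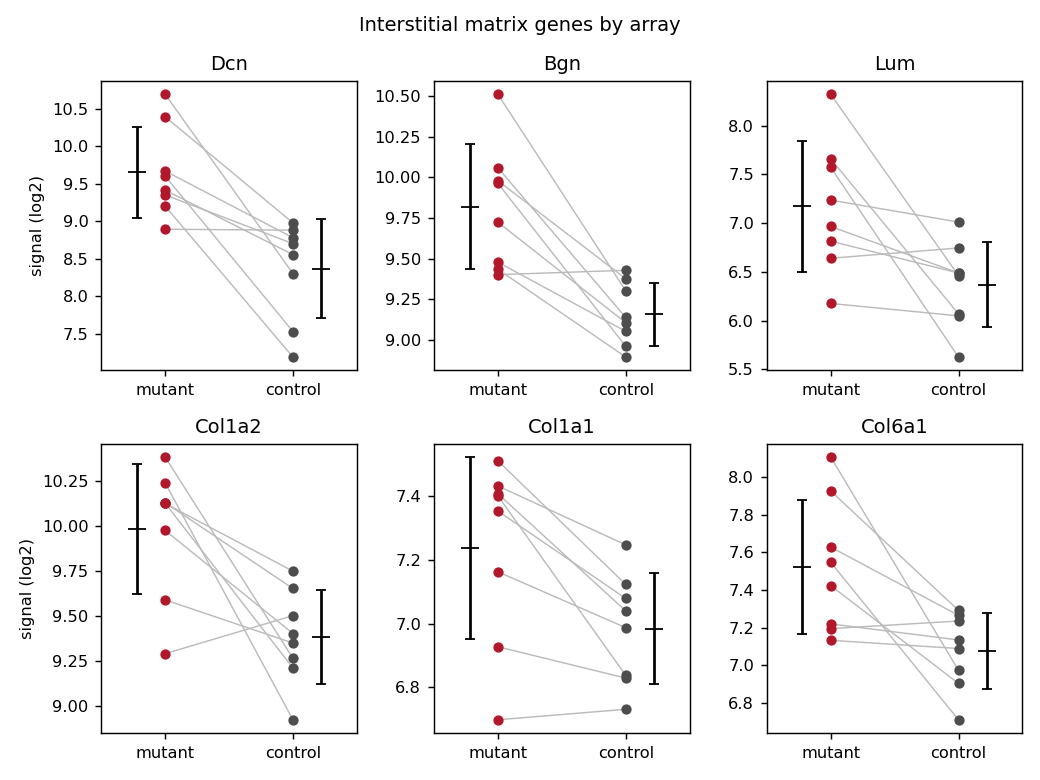
Log2 signal of small proteoglycan and interstitial collagen genes on each of the 8 mutant (left) and 8 control (right) arrays, as points joined by number, with group means and SDs as bars. For Dcn and Bgn, 7 of 8 mutant arrays lie above the highest control array.

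Among the 5 fibrillar collagen genes, 1 rose and the other 4 were higher in the mutant mean without a call. Col1a2, which encodes the alpha 2 chain of type I collagen, had a lowest, median and highest signal of 9.29, 10.12 and 10.38 in mutants, against 8.92, 9.38 and 9.75 in controls. That placed 6 mutant arrays above the highest control. The difference was 0.60 ± 0.15 (95% interval 0.29 to 0.91, 1.52-fold, adjusted p = 0.0145), and it was between 0.54 and 0.70 when any 1 array was left out. Its dimmer probe sets had differences of 0.41 ± 0.17, which was not called, and 0.25 ± 0.07, called at a signal far below the array medians (3.79 ± 0.15 in mutants and 3.53 ± 0.15 in controls).

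Col1a1, the alpha 1 chain that outnumbers its partner in the type I trimer, read 6.70, 7.38 and 7.51 at the lowest, median and highest in mutants, against 6.73, 7.01 and 7.25 in controls. Its difference of 0.25 ± 0.11 was not called (adjusted p = 0.199), but 7 of 8 pairs were higher in the mutant and the block gave an adjusted p of 0.0244. Without mutant replicate 1 it was 0.33 (adjusted p = 0.0398). It was smaller with the acinar mean in the fit, at 0.088 without the block (adjusted p = 0.678) and 0.076 with it (adjusted p = 0.81). Type I collagen chains thus had differences of 0.60 and 0.25 on probe sets of different brightness, and whether those differ from each other was not tested.

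Col3a1, the single chain of type III collagen found in pliable tissues, averaged 10.47 ± 0.46 in mutants and 10.06 ± 0.31 in controls (0.42 ± 0.18, adjusted p = 0.186). The type V chains, which start and limit the thickness of type I fibrils, had smaller differences. Col5a1 averaged 6.89 ± 0.14 in mutants and 6.72 ± 0.16 in controls (0.17 ± 0.08, adjusted p = 0.204). Col5a2, the neighbour of Col3a1 on chromosome 1, averaged 8.05 ± 0.29 in mutants and 7.78 ± 0.21 in controls (0.27 ± 0.12, adjusted p = 0.195). All 5 fibrillar genes were higher in the mutant in pairs 2, 3, 4, 5, 6 and 8, in 0 of 5 in pair 1 and in 3 of 5 in pair 7.

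Collagen VI forms beaded filaments that link basement membranes to the interstitial matrix, and it needs all of its chains to assemble. Col6a1 ran from 7.13 through a median of 7.49 to 8.11 in mutants, against 6.71, 7.11 and 7.29 in controls. It rose by 0.45 ± 0.13 (95% interval 0.16 to 0.73, 1.36-fold, adjusted p = 0.0475), and 7 of 8 pairs were higher in the mutant. The call lay close to the threshold: it was lost without any of 11 arrays (mutant replicates 2, 3, 4, 6 and 8 and control replicates 3 to 8), with adjusted p-values up to 0.095. Without pairs 1 to 3, whose mutants had high immune marker signal, the difference was 0.37 (adjusted p = 0.131), while Dcn, Bgn and Col1a2 kept their calls at 1.30, 0.70 and 0.70.

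The other collagen VI chains were not called. Col6a2, which lies beside Col6a1 on chromosome 10, averaged 9.12 ± 0.40 in mutants and 8.83 ± 0.24 in controls (0.30 ± 0.15, adjusted p = 0.274). Col6a3 averaged 7.78 ± 0.50 in mutants and 7.73 ± 0.38 in controls (0.05 ± 0.20, adjusted p = 0.927). The multiplexins are basement membrane zone collagens, and the end of the type XVIII chain is the source of endostatin. Col15a1 averaged 7.09 ± 0.26 in mutants and 7.22 ± 0.18 in controls (−0.13 ± 0.11), and Col18a1 6.93 ± 0.24 in mutants and 7.09 ± 0.22 in controls (−0.16 ± 0.11). Neither was called, and each was higher in the mutant in 2 of 8 pairs.

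The 250 bases before the start of Col1a2, Bgn and Col6a1, which were called higher, and of Rgs5, which was called lower with the block, are shown to set the promoters of called genes side by side. They are RefSeq windows on GRCm38.p6, at chr6:4505368-4505617 on the plus strand for Col1a2, chrX:73483351-73483600 on the plus strand for Bgn, chr10:76726045-76726294 on the minus strand for Col6a1 and chr1:169655251-169655500 on the plus strand for Rgs5. Each is printed 5′ to 3′ along the gene and ends at the base before its start. Dcn, also called higher, and Lum and Col1a1, called higher with the block, had no window in the sources used here. Capitals mark matches on either strand to CCAAT (read ATTGG on the other strand), GGGCGG (read CCGCCC) and TATAAA.
Col1a2: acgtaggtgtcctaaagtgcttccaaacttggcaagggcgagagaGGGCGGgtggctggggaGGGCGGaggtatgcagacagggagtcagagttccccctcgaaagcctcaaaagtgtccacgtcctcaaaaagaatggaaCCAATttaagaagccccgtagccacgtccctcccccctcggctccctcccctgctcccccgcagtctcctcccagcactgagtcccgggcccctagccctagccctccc
Bgn: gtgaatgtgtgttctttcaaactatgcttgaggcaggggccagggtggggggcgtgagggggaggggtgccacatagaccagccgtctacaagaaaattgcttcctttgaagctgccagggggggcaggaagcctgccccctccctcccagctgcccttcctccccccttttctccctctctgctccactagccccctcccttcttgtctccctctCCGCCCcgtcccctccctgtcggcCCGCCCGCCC
Col6a1: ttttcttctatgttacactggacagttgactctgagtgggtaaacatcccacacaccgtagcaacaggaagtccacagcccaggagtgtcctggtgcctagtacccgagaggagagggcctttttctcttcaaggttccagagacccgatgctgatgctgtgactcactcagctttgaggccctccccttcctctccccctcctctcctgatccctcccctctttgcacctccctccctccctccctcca
Rgs5: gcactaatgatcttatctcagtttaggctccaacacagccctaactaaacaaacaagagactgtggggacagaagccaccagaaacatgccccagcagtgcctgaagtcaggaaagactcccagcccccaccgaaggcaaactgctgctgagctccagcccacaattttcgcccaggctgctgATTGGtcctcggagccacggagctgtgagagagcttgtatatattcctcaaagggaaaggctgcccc

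The Col1a2 window held 1 CCAAT match, 109 bases before the start, and 2 GGGCGG matches, 205 and 188 bases before it. Bgn had 3 GGGCGG matches on the opposite strand, of which the 2 nearest to the start overlap. The Rgs5 window had 1 CCAAT match on the opposite strand, 67 bases before the start, and the Col6a1 window had none of the 3 motifs. Windows were matched for 24 starts of 21 measured genes of the list. CCAAT was present in 8 of these 24 (33.3%) and in 33.9% of all 32841 windows, GGGCGG in 13 (54.2%) and in 32.7% of all, and TATAAA in 3 (12.5%) and in 12.4% of all.

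No basement membrane gene was called in either direction, and none had an unadjusted p under 0.05 in limma. With the block 0 were called, and 2, Lama4 and Nid2, were lower at an unadjusted p under 0.05. Their 95% intervals with the block were −0.39 to −0.03 and −0.35 to −0.06. Of the 8 genes, 4 had a mutant mean above and 4 below the control mean, with a median difference of −0.05. Col4a1 and Col4a2, neighbours on chromosome 8, encode the chains of the main type IV collagen network. Col4a1 had a lowest, median and highest signal of 9.92, 10.51 and 11.09 in mutants, against 10.45, 10.65 and 11.28 in controls. In 7 of 8 pairs the mutant was lower, with a difference of −0.21 ± 0.15 (95% interval −0.52 to 0.11, adjusted p = 0.476). Col4a2 read 9.06, 9.65 and 10.05 in mutants, against 9.45, 9.68 and 10.23 in controls (−0.14 ± 0.14, 95% interval −0.42 to 0.15, adjusted p = 0.625). The Col1a2 and Col4a1 intervals, 0.29 to 0.91 and −0.52 to 0.11, do not overlap, but the difference between the genes was not tested. This does not hold across the 2 classes, and Col1a2 was the 1 called fibrillar gene. The intervals of Nid1 (−0.13 to 0.48) and Lamb1 (−0.07 to 0.41) overlap those of Col1a2 and of the other fibrillar genes.

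The laminin genes encode the alpha 4, beta 1 and gamma 1 chains, which together form an endothelial laminin. Lama4 read 6.14, 6.70 and 6.99 at the lowest, median and highest in mutants, against 6.60, 6.85 and 7.29 in controls (−0.21 ± 0.12, 95% interval −0.47 to 0.04, adjusted p = 0.346). Lamb1 averaged 9.005 ± 0.29 in mutants and 8.83 ± 0.17 in controls (0.17 ± 0.11, 95% interval −0.07 to 0.41). Its dimmer probe sets were mixed in direction, at 0.16, −0.09 and 0.02, and none was called. Lamc1 averaged 7.36 ± 0.19 in mutants and 7.31 ± 0.11 in controls (0.04 ± 0.08, 95% interval −0.12 to 0.21).

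The nidogens bridge laminin and type IV collagen. Nid1 averaged 9.28 ± 0.35 in mutants and 9.11 ± 0.26 in controls, higher in the mutant in 7 of 8 pairs (0.18 ± 0.14, adjusted p = 0.544). Nid2 averaged 7.08 ± 0.31 in mutants and 7.28 ± 0.35 in controls (−0.20 ± 0.15, adjusted p = 0.508), with the mutant lower in 6 of 8 pairs (adjusted p = 0.0584 with the block). Perlecan, encoded by Hspg2, is the main heparan sulphate proteoglycan of vascular basement membranes. Hspg2 had the narrowest interval of the class, −0.05 to 0.19, around 0.07 ± 0.06 (9.23 ± 0.11 in mutants and 9.16 ± 0.08 in controls). Its second probe set pointed the other way, at −0.18 ± 0.09, and was not called.

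**Figure D3:**
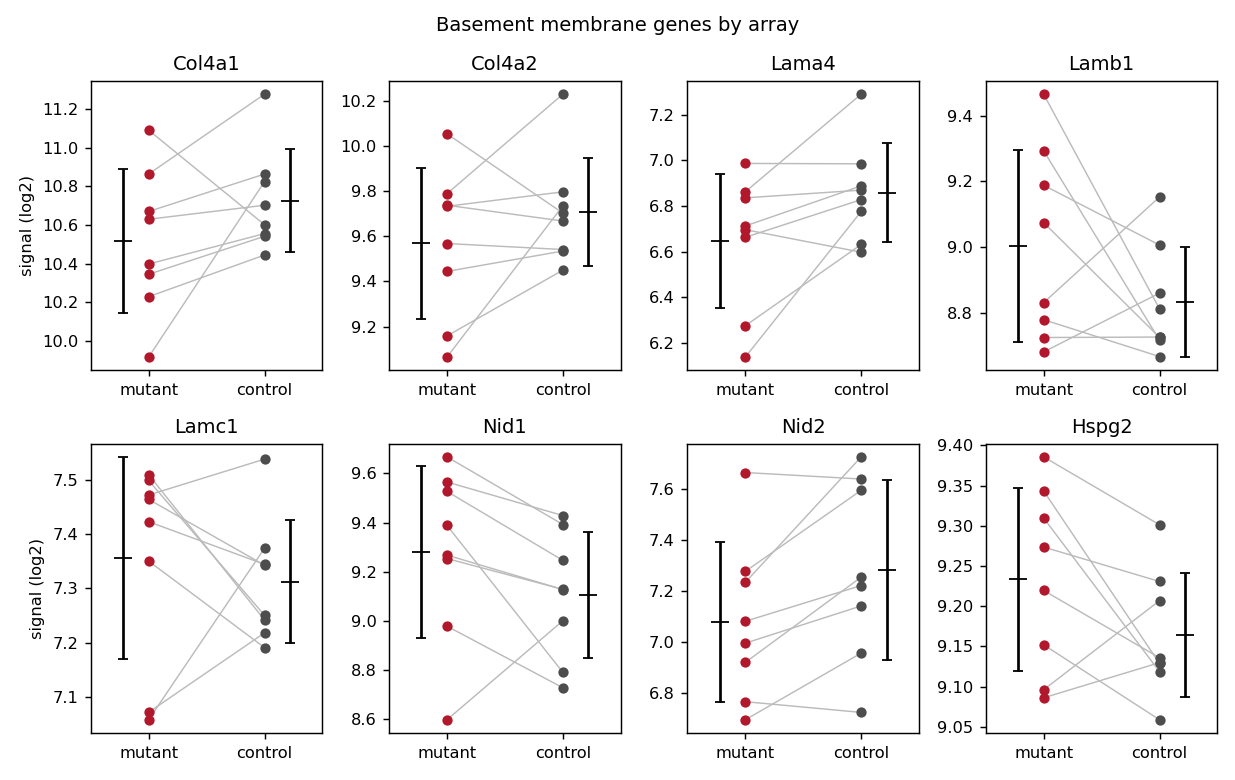
Log2 signal of the 8 basement membrane genes on each of the 8 mutant (left) and 8 control (right) arrays, as points joined by number, with group means and SDs as bars. The groups overlap for all 8 genes, and Col4a1, Col4a2, Lama4 and Nid2 have the lower mean in mutants.

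None of the 5 glycoprotein and inhibitor genes was called or had an unadjusted p under 0.05 in limma, and Fn1 and Postn varied most among mutants. Fibronectin, encoded by Fn1, and periostin, encoded by Postn, are cell-adhesive proteins that are abundant in wound matrix. Fn1 read 6.29, 6.73 and 8.44 at the lowest, median and highest in mutants, against 6.63, 6.76 and 7.01 in controls. Its difference of 0.22 ± 0.25 (adjusted p = 0.697) was 0.01 without mutant replicate 2. Postn read 7.15, 7.77 and 10.34 in mutants, against 7.38, 7.85 and 8.54 in controls. The top value belonged to mutant replicate 1, the next mutant was at 8.02, and the difference of 0.09 ± 0.35 (adjusted p = 0.924) was −0.25 without that array.

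Sparc, a calcium-binding matricellular protein that binds collagen, averaged 10.83 ± 0.33 in mutants and 10.80 ± 0.15 in controls (0.03 ± 0.12, adjusted p = 0.937). The secreted glycoprotein gene Fstl1 averaged 7.59 ± 0.33 in mutants and 7.48 ± 0.26 in controls (0.10 ± 0.14, adjusted p = 0.749). Timp3, a matrix-bound inhibitor of metalloproteinases, averaged 10.52 ± 0.61 in mutants and 10.82 ± 0.35 in controls (−0.30 ± 0.23, adjusted p = 0.499), and all 4 of its probe sets were lower in the mutant mean.

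Of the stromal cell genes, Rgs5 stood on the lower side. Rgs5 encodes a regulator of G protein signalling and marks pericytes. It read 10.35, 10.49 and 11.13 at the lowest, median and highest in mutants, against 10.69, 10.89 and 11.54 in controls, and 5 mutant arrays lay below the lowest control. The difference of −0.37 ± 0.15 (95% interval −0.68 to −0.06) was not called, with an adjusted p of 0.142. With the replicate block it was called lower (SE 0.09, adjusted p = 0.0136), and 7 of 8 pairs were lower in the mutant. All 4 Rgs5 probe sets were lower in the mutant mean. With the block, the call was lost when the acinar, immune or endothelial mean was added (−0.28, −0.33 and −0.34, adjusted p = 0.448, 0.066 and 0.0608). With the 3′ minus 5′ signal the difference was smaller, at −0.099 without the block (adjusted p = 0.731) and −0.18 with it (adjusted p = 0.801).

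Other pericyte and mesenchymal genes were not called. Pdgfrb, the receptor through which pericytes are recruited, averaged 8.999 ± 0.37 in mutants and 8.76 ± 0.23 in controls (0.24 ± 0.14, adjusted p = 0.372) and was higher in the mutant in 7 of 8 pairs. Cspg4, the NG2 proteoglycan of pericytes, averaged 7.23 in both groups, with an SD of 0.06 in mutants and 0.13 in controls. Thy1, a surface glycoprotein of fibroblasts that T cells and neurons share, averaged 7.24 ± 0.57 in mutants and 6.87 ± 0.22 in controls (0.36 ± 0.20, adjusted p = 0.322). Vim, the intermediate filament gene of mesenchymal cells, averaged 9.81 ± 0.54 in mutants and 9.58 ± 0.27 in controls (0.23 ± 0.20, adjusted p = 0.563), on a probe set whose suffix marks possible cross-hybridisation.

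The same-numbered pairs differed in how many of the 31 genes were higher in the mutant. The count was 29 in pair 8, 24 in pairs 3 and 4, 21 in pair 2, 20 in pair 6, 17 in pair 5, 11 in pair 7 and 4 in pair 1. The median difference over the 31 genes ran from 0.41 in pair 8 to −0.10 in pair 7 and −0.16 in pair 1. Mutant replicate 1 was the lowest of the 8 mutants for 15 of the 31 genes, and mutant replicate 3 was the highest for 14. Among controls, replicate 2 was the highest of its group for 17 genes, and replicates 7 and 8 were the lowest for 10 each. Small proteoglycans were higher in the mutant for 3 of 3 genes in every pair but pair 1, where 1 of 3 was. Basement membrane genes ranged from 0 of 8 higher in pair 1 to 8 of 8 in pair 8. Without pair 1, an alternative chosen after seeing the data, the differences were 1.47 for Dcn, 0.76 for Bgn, 0.72 for Col1a2 and 0.52 for Col6a1, and Lum was called as well at 0.94 (adjusted p = 0.0488).

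**Figure D4:**
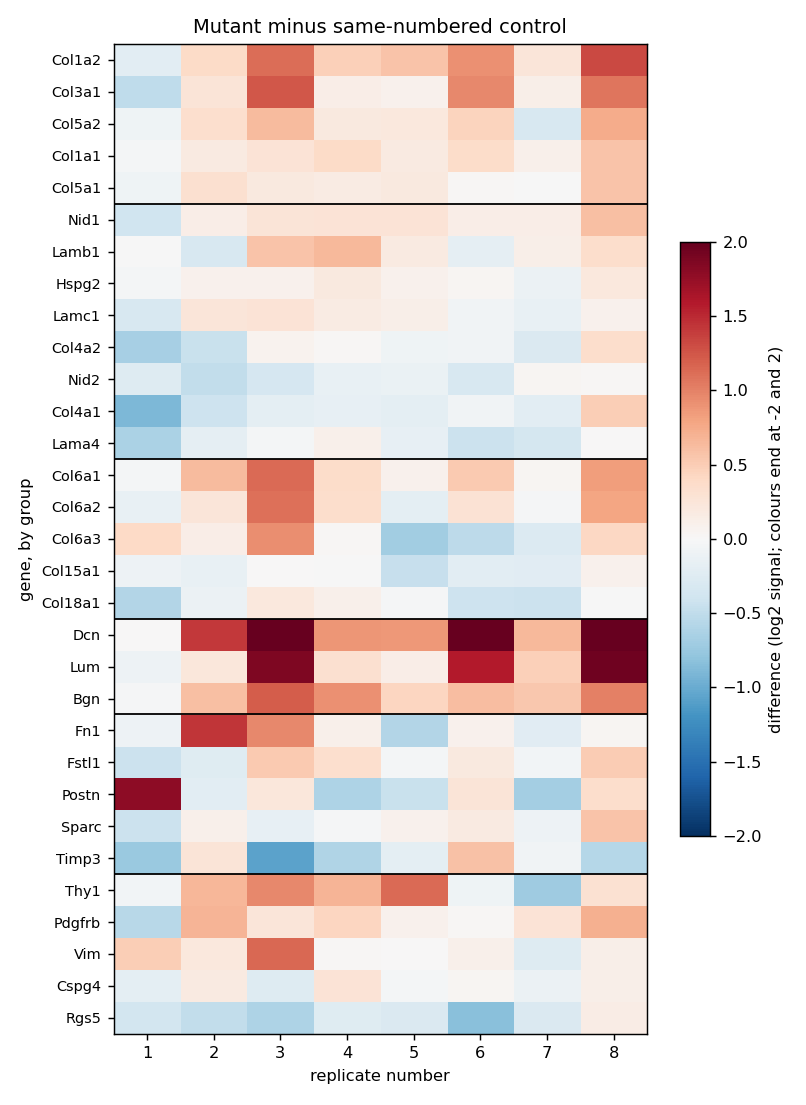
Difference of each gene (rows) in each of the 8 same-numbered pairs (columns), mutant minus control on the log2 scale, with colours that end at the limits of the scale bar. Pair 8 has 29 of 31 genes higher in the mutant and pair 1 has 4.

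Further matrix genes were taken from lists outside the 31. Of all genes, 4.1% rose and 4.66% fell, or 7.88% and 9.71% with the block. At an unadjusted p under 0.05 in limma the shares were 9.67% and 11.8%. Small counts in lists of this size can lie near those shares. Of 25 other collagen and laminin chains, 2 rose and 0 fell, with a median difference of −0.05, and 14 of the 25 had means below the array medians. The 2 were Col14a1, a fibril-associated collagen (6.91 ± 0.24 in mutants and 6.50 ± 0.20 in controls, adjusted p = 0.0209), and Lama2, the alpha 2 laminin chain (7.31 ± 0.14 in mutants and 6.99 ± 0.23 in controls, adjusted p = 0.04). The Lama2 call was lost when control replicate 1, 3, 6 or 8 or any mutant but replicates 1 and 5 was left out (up to an adjusted p of 0.08). Of 19 genes for collagen processing, 2 rose and 0 fell, with a median of −0.02. Loxl1, a lysyl oxidase that acts on elastin and collagen, averaged 6.37 ± 0.30 in mutants and 5.72 ± 0.27 in controls (0.64 ± 0.13, adjusted p = 0.00458), with a mean over all arrays below the array medians. Pcolce, an enhancer of procollagen cleavage, averaged 7.09 ± 0.33 in mutants and 6.53 ± 0.33 in controls (adjusted p = 0.0263), and its call was lost when control replicate 3, 5, 6 or 8 or mutant replicate 2 or 3 was left out (up to an adjusted p of 0.0565). At an unadjusted p under 0.05 in limma, 3 of the collagen and laminin chains and 2 of the processing genes were lower, and with the block 3 of each list were called higher, and 0 and 1 lower.

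Of 25 other glycoproteins and proteoglycans, 2 rose and 1 fell, with a median of 0.02, and with the block 3 and 2 were called. Ogn, a small leucine-rich proteoglycan like decorin, averaged 5.51 ± 0.40 in mutants and 4.63 ± 0.41 in controls (0.88 ± 0.19, adjusted p = 0.00547), both below the array medians. Spon1, an adhesive glycoprotein, averaged 7.28 ± 0.50 in mutants and 6.49 ± 0.29 in controls (0.79 ± 0.19, adjusted p = 0.0125). Matn2, a matrilin that bridges matrix proteins, fell by 1.16 to 7.62 ± 0.33 in mutants, against 8.77 ± 0.27 in controls (adjusted p = 4.59e-05), and was lower in all 8 pairs.

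Of 19 matrix receptors, 1 rose and 2 fell, with a median of −0.04. The differences of 16 were below 0 and those of 3 above it, and the mean of the list was lower in the mutant in all 8 pairs. Itgb8 averaged 7.38 ± 0.36 in mutants and 8.58 ± 0.35 in controls (−1.20 ± 0.16, adjusted p = 0.000146). Itgav, its alpha partner in a TGF-beta activating integrin, averaged 11.16 ± 0.11 in mutants and 11.54 ± 0.14 in controls (−0.38 ± 0.06, adjusted p = 0.000948). Itgb1, the beta chain of most collagen and laminin receptors, averaged 9.11 ± 0.12 in mutants and 8.78 ± 0.09 in controls (0.33 ± 0.06, adjusted p = 0.00163). Each was in its direction in all 8 pairs.

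Among 21 matrix proteases and inhibitors, 2 rose and 0 fell, with a median of 0.05. Timp2, an inhibitor of metalloproteinases that also helps to activate Mmp2, averaged 10.17 ± 0.19 in mutants and 8.89 ± 0.22 in controls (1.28 ± 0.10, adjusted p = 2.29e-07). Mmp2, a gelatinase, averaged 6.70 ± 0.24 in mutants and 6.34 ± 0.15 in controls (0.36 ± 0.10, adjusted p = 0.0275), and its call was lost when control replicate 6 or 8 or mutant replicate 2 was left out (up to an adjusted p of 0.0576). No gene of this list was lower at an unadjusted p under 0.05 in limma. Of the 12 genes named from these 5 lists, Matn2, Itgb8, Itgb1 and Timp2 kept their calls without pairs 1 to 3. The 8 that lost them there, with fewer arrays, kept their direction, at 0.47 for Col14a1, 0.36 for Lama2, 0.55 for Loxl1, 0.55 for Pcolce, 0.82 for Ogn, 0.64 for Spon1, −0.26 for Itgav and 0.36 for Mmp2. On the mean of each gene's probe sets 10 of the 12 kept their calls. Pcolce (0.40, adjusted p = 0.0706) and Spon1 (0.23, adjusted p = 0.0571) lost theirs. Lama2 and Itgb8 had 1 probe set each, and Mmp2 had a larger difference there (0.43). The others had smaller differences than on the brightest probe set, such as 0.65 for Timp2. With the block and the acinar mean 5 of the 12 kept their calls. Of the 7 that did not, Ogn (0.98) and Itgb1 (0.38) had larger differences than without those terms, and Loxl1 (0.53), Pcolce (0.37), Mmp2 (0.31), Col14a1 (0.24) and Lama2 (0.19) had smaller ones. With the block and the 3′ minus 5′ signal Itgb8 and Timp2 kept their calls. Among the 10 others, Matn2 (−1.28) and Mmp2 (0.42) had larger differences than without those terms, Ogn (0.64), Spon1 (0.39), Itgav (−0.29), Itgb1 (0.21), Col14a1 (0.092) and Lama2 (0.089) had smaller ones, and Loxl1 and Pcolce turned to −0.099 and −0.14 (adjusted p = 0.894 and 0.833).

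Markers of the cells that could hold these transcripts were read as the mean of each list per array. Calls in these lists stand beside the shares of all genes, 4.1% higher and 4.66% lower, or 7.88% and 9.71% with the block. The 16 fibroblast and stellate cell markers lay between 6.05 and 6.85 in mutants and between 6.14 and 6.40 in controls, with mutant replicate 3 at the top. In limma 0 of them rose and 1 fell, with 2 higher and 3 lower at an unadjusted p under 0.05, and with the block 1 was called higher and 2 lower. The 1 that fell was Reln, by 0.61 (adjusted p = 0.0378, not called without any 1 of 10 arrays), and 8 of the 16, Pdgfra among them, were below the array medians. Reln went against most of its list, as 11 of the 16 differences were above 0 and 5 below, with a median of 0.08. The mean of the list was higher in the mutant in 4 of 8 pairs. The 12 pericyte and smooth muscle markers lay between 6.68 and 7.10 in mutants and between 6.86 and 7.36 in controls, with the mutant lower in 8 of 8 pairs. Of them 1 rose and 2 fell, and with the block 2 were called higher and 4 lower. Acta2, smooth muscle actin, averaged 8.32 ± 0.48 in mutants and 9.30 ± 0.52 in controls (−0.98, adjusted p = 0.0105). Its call was lost with the 3′ minus 5′ signal, at −0.61 without the block (adjusted p = 0.0923) and −1.03 with it (adjusted p = 0.136). The acinar mean and the block together gave −0.44 (adjusted p = 0.144). Myh11, smooth muscle myosin, fell by 0.53 (adjusted p = 0.0499, not called without any 1 of 11 arrays), while Abcc9, a potassium channel subunit of pericytes, rose by 0.65 (adjusted p = 0.0212). With the block and the acinar mean Myh11 was at −0.17 and Abcc9 at 0.71 (adjusted p = 0.717 and 0.134). On the mean of their probe sets neither was called, at −0.26 and 0.35 (adjusted p = 0.111 and 0.0776). Acta2 kept its call there, at −0.34 (adjusted p = 0.0377).

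The 18 endothelial markers lay between 7.77 and 8.36 in mutants and between 8.15 and 8.47 in controls, with mutant replicate 1 the lowest. In limma 0 of the 18 were called, while at an unadjusted p under 0.05 there were 1 higher and 2 lower, and with the block 2 were called lower. The 21 immune markers lay between 7.49 and 9.47 in mutants and between 7.42 and 8.63 in controls, and of them C1qa, a complement component of macrophages, rose by 0.88 (adjusted p = 0.00598). Without pairs 1 to 3 its difference was 0.82 (adjusted p = 0.114). C1qa was the 1 called of the 21, with or without the block. At an unadjusted p under 0.05, 3 were higher in limma and 8 with the block. Of the 21 differences, 19 were above 0, with a median of 0.38. The 10 ductal markers averaged 8.34 ± 0.04 in mutants and 8.55 ± 0.09 in controls, and Krt19, a duct keratin, fell by 0.95 (adjusted p = 0.0113). It was the 1 called of that list, and with the block 3 were called lower. The 8 Schwann cell markers averaged 6.69 ± 0.20 in mutants and 6.60 ± 0.12 in controls, with 0 called in limma and 0 at an unadjusted p under 0.05. Of the 20 acinar markers, 1 fell in limma without the block (Bhlha15, by 0.53, adjusted p = 0.0399, not called without any 1 of 11 arrays) and all 20 with it. Bhlha15 had the smallest fall of the 20, whose differences ran down to −2.03 with a median of −1.60. Without the block 18 of the 20 were lower at an unadjusted p under 0.05 in limma. The 10 beta cell markers averaged 11.64 ± 0.14 in mutants and 12.40 ± 0.12 in controls, and 8 of them fell. With the immune mean as a covariate the differences were 1.23 for Dcn, 0.60 for Bgn and 0.64 for Col1a2, and with the endothelial mean they were 1.34, 0.71 and 0.68, all still called. Col6a1 lost its call in both (0.39 and 0.48, adjusted p = 0.098 and 0.0509). The part of fibroblast and pericyte marker signal in the results was not tested.

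**Figure D5:**
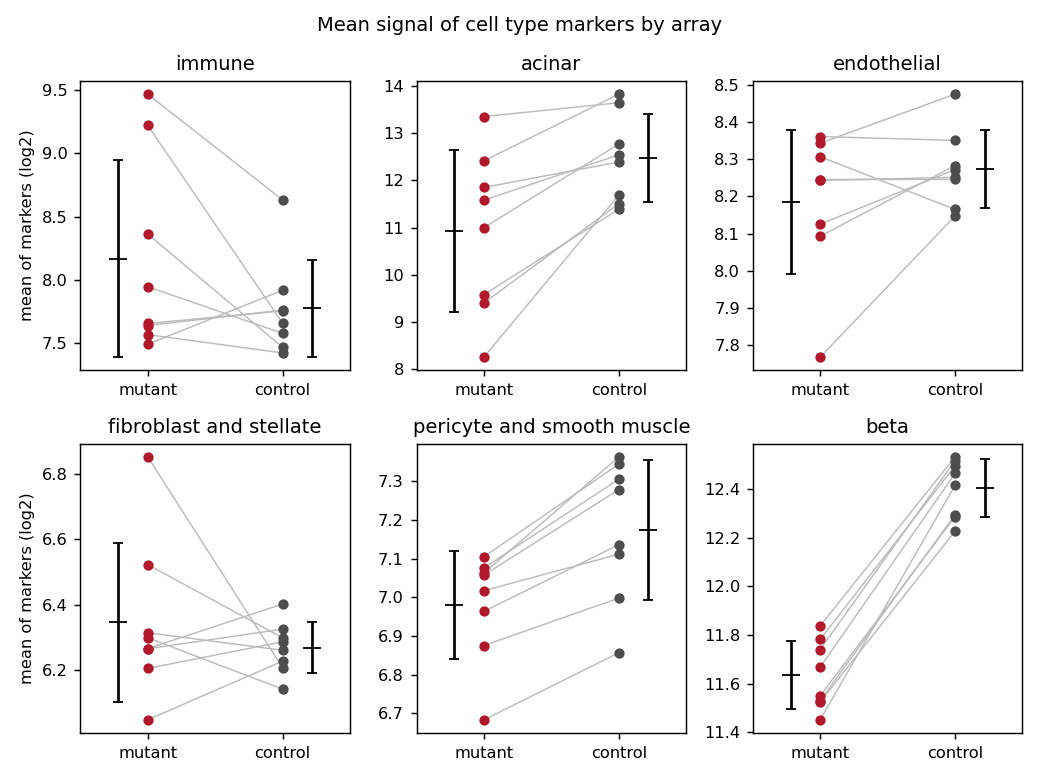
Mean log2 signal of marker genes of 6 cell types on each of the 8 mutant (left) and 8 control (right) arrays, as points joined by number, with group means and SDs as bars. The acinar, the beta and the pericyte and smooth muscle means have the mutant lower in 8 of 8 pairs. The beta means of the 2 groups do not overlap, and the endothelial means do.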

How the data were processed

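Per the labels' protocols, 150 ng of Trizol-extracted islet RNA per sample was labelled by 3′ IVT Express and hybridised to Affymetrix Mouse430_2 arrays. The authors deposited log2 signals, with 1 value per probe set. Their background correction, summarisation and normalisation are not given in the sources used here, and no scaling was added (array medians 6.29 to 6.35). The log base was inferred from the values, whose highest was 15.39, and signals near background compress differences.

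Of 45101 probe sets, 64 controls were left out, 34945 named 1 gene, 932 several and 9160 none. Symbols were updated through gene identifiers (34741 probe sets), and each of 18193 genes was read on the probe set with the highest mean. Of the 31 measured genes of the list, 23 had several probe sets, and for 6 of these the directions were mixed. The list, the companion and marker lists and the tests were chosen with earlier results of these data known. Named were all genes of the list, Insm1, and up to 3 called genes of each other list by lowest p, of which the text gives a part for the cell type markers.

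The groups were fitted in R 4.3.3 with limma 3.58.1 (genotype as the only term, eBayes with a mean-variance trend, two-sided, Benjamini-Hochberg over all genes). Simulated data with the means and SDs of these 18193 genes gave 78 of 100 genes changed 1.5-fold and 100 of 100 changed 3-fold, and 4.81% of those called had not been changed. Each simulated gene and array was drawn independently, without the pairing or the acinar and RNA quality differences of these arrays. Whether those rates hold here was not tested. Replicate numbers come from the labels. Deviations of same-numbered arrays correlated in 8 of 8 pairs (0.237 to 0.735), over a minimum of 0.1, so the numbers were taken to pair the arrays. That they mark litters is not stated in the labels. The 95% intervals are those of limma without the block, except where the block is named. Promoter windows are RefSeq's, on GRCm38.p6. Alternatives were other normalisations, filters, probe set rules and variance models, array weights, the block, marker means and the 3′ minus 5′ signal as covariates, leaving out each array and leaving out pairs 1 to 3, and, added after seeing the data, pair 1.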

Additional observations from a re-analysis of the deposited data

Results flagged for a closer look

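In 3 of 62 gene-by-group sets of 8 arrays, the highest array lay apart from the others by more than Dixon's 95% critical value of 0.526, where chance alone puts about 1 in 20 sets. Postn reached 10.34 in mutant replicate 1, against 8.02 in the next mutant. Col4a2 reached 10.23 in control replicate 2, against 9.80 in the next control. Sparc reached 11.14 in control replicate 2, against 10.85 in the next control. None of the 3 genes was called.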

How the results depend on the processing

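Of 1054 combinations of a gene of the list with 1 of 34 alternatives, 954 kept direction and side of the threshold, 25 lost a call, 11 gained one, 3 called differences reversed and 61 turned sign without being called in either fit. The 3 reversals came with the block plus the 3′ minus 5′ signal (Dcn −0.030, Col1a2 −0.044, Col6a1 −0.20), and the cause was not tested. The count of genes of the list called higher was 4, and it was 0 with the block and the acinar mean, 0 with the block and the 3′ minus 5′ signal, and 3 to 5 when 1 array was left out. With the replicate block alone, 1 gene was called lower (Rgs5) in place of 0, and leaving out 1 array gave 0 each time. Over all genes, 1594 were called, against 3200 with the replicate block, 682 with the block and the acinar mean, 238 with the block and the 3′ minus 5′ signal, 828 without pairs 1 to 3 and 1324 to 1645 when 1 array was left out. Dim probe sets limit what can be seen of Dcn's second probe set and of most collagens outside the list.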
